A study of Mus musculus with 14 samples.

Results

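The genes described here are 38 of 40 listed genes of T cell identity and signalling. The list was chosen by name, with earlier results of these data known. The 38 genes were found in a table of 18481 genes by matching symbols without regard to case. They are the CD3 chains, the co-receptors, adhesion and co-stimulatory receptors, signalling molecules after the T cell receptor, cytokine receptors and lineage factors, with 5 genes of naive and central memory cells, 3 of regulatory cells and 4 of effector-memory cells. Cd40lg and Trat1 have no row under those symbols and are not analysed here. RNA was sequenced from 14 whole frozen tumours grown from SMM102 mouse melanoma cells, injected subcutaneously at 2 places per animal into female C57BL/6J mice aged 6 to 8 weeks. Dosing began once a tumour measured 150 to 300 mm3. The BRAF inhibitor PLX4032, also known as vemurafenib, was given intraperitoneally at 50 mg/kg on 5 days of each week. Treated tumours were taken after 3 days (n = 2), 6 days (n = 2), 18 days (n = 2) or 27 days (n = 4). Controls were collected at day 3 (n = 2) and day 6 (n = 2). The labels call the controls untreated, whereas the design text speaks of vehicle, and days 18 and 27 have no controls of their own. The day 27 tumours are the left and right tumours of 2 mice. Which columns share a mouse is not given, and they were entered as 4 samples, so every p that includes them is too small. The tumours of a group are numbered here only to name them.

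T cells recognise antigen through the T cell receptor, whose signal passes through the CD3 chains. The kinase Lck, held by the co-receptors CD4 and CD8, phosphorylates those chains, Zap70 docks on them, and the adaptor Lat spreads the signal to Ras, calcium and protein kinase C. Naive and central memory T cells carry the lymph node homing receptor Ccr7 and the interleukin 7 receptor, regulatory T cells are defined by the transcription factor Foxp3, and effector-memory cells carry the inflammatory chemokine receptors Cxcr3 and Cxcr6. In tumours, CD8 T cells can kill tumour cells and regulatory T cells restrain them.

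The promoters of the 3 linked CD3 genes, of Lck and of Cxcr3 are shown because the first 4 genes are the core of the receptor signal and moved together below, and Cxcr3 passed the test on more days than any other member. Each is the 250 bases before the RefSeq start on GRCm38.p6, the assembly of mm10, 5′ to 3′ on the gene's strand. Capitals mark matches, on either strand, to 4 core motifs of T cell transcription factors. The letters searched were TGTGGT for the RUNX factors. For the ETS factors they were CAGGAAG. The GATA factors were represented by AGATAA. For the TCF and LEF factors the search used CTTTGA. Cd3g (chr9:44980432-44980681, minus strand) and Cd3d (chr9:44981536-44981785, plus strand) lie head to head with starts 1355 bases apart. Cd3e lies beside them (chr9:45009612-45009861, minus strand), Lck is at chr4:129573642-129573891 on the minus strand and Cxcr3 at chrX:101734148-101734397 on the minus strand.
Cd3g: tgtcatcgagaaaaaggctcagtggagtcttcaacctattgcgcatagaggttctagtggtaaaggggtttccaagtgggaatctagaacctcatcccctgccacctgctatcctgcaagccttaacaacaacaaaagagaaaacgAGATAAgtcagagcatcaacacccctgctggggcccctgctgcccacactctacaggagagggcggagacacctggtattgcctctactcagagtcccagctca
Cd3d: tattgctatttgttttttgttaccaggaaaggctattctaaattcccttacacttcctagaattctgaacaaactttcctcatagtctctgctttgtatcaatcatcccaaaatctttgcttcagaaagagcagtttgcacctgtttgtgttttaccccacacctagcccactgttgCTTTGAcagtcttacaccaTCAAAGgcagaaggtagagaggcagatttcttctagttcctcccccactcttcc
Cd3e: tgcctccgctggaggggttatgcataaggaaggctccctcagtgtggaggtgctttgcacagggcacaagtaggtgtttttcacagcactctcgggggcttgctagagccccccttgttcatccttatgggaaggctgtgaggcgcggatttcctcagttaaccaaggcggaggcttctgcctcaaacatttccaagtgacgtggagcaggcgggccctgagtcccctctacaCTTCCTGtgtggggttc
Lck: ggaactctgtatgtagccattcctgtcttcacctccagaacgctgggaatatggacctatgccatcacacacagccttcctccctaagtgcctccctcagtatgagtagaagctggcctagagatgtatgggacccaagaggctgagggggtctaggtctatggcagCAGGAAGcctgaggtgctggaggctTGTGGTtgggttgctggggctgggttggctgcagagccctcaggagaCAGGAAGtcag
Cxcr3: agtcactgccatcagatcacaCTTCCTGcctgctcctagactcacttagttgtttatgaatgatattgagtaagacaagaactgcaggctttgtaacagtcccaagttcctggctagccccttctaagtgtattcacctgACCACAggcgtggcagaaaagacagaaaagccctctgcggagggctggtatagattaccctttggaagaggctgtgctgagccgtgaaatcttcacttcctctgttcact
In these windows the GATA letters appear once in Cd3g, the TCF/LEF letters in 2 places in Cd3d, and the ETS letters in Cd3e, Lck and Cxcr3. The Lck and Cxcr3 windows also hold the RUNX letters. RefSeq gave a window for 24 of the members. The ETS letters were in 7 of these (29.2%, against 10.5% of all 27025 windows), the RUNX letters in 4 (16.7%, against 14.2%), the TCF/LEF letters in 4 (16.7%, against 14%) and the GATA letters in 1 (4.17%, against 10.3%). No matches overlapped, and 12 of the 24 windows held none of the 4 motifs. These are matches of letters, and binding was not measured.

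Values are those of the deposited table, a TPM-like scale per transcript length, with column totals of 879385 to 1084401. Depth is unknown, so no counting error is given. Changes are differences in log2(value + 1) with their standard error (SE), which understate the fold of weakly expressed genes. They come from limma fitted to all 15841 genes that reached 1 in at least 2 tumours, with calls at a Benjamini-Hochberg adjusted p under 0.05. All 38 members reached that level. Every treated day is compared with the mean of the same 4 controls, so the comparisons share them. Since these are bulk tumours, fewer cells of a type and less RNA per cell cannot be told apart.

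T cell genes were higher in the tumours after 3 days of PLX4032. Of the 38 members 36 rose and 0 fell, against 24.9% of all tested genes that rose, and the median change of the members was 2.41, against 0.02 for all genes. In 37 members both treated tumours exceeded all 4 controls, as did 31.2% of all genes. The exception was Tcf7. Changes of the 36 called members ran from 0.93 to 3.19 on the log2 scale.

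The 4 signalling chains of the receptor complex all rose at day 3. Cd3e, which encodes the epsilon chain, stood at 14.5 and 22.4 in the PLX4032 tumours, against 3.35 and 1.37 in the day 3 controls and 2.28 and 1.05 in the day 6 controls. The treated tumours lay clear of every control, and the change was 2.72 (SE 0.50, adjusted p = 0.00153). Cd3g, the gamma chain, stood at 27.5 and 54.1 in the PLX4032 tumours, against 5.42, 3.26, 4.50 and 2.82 in the controls, a change of 3.02 (SE 0.57, adjusted p = 0.00172). Cd3d, the delta chain, was almost level across the controls, at 6.39 ± 0.27 (SD, n = 4), and stood at 19.1 and 35.5 in the PLX4032 tumours. Its change was 1.87 (SE 0.30, adjusted p = 0.00072). Cd247, the zeta chain, which NK cells also use, changed by 1.95 (SE 0.36, adjusted p = 0.00153). The ratio of mean values between treated tumours and controls ran from 4.27 for Cd3d to 10.2 for Cd3g.

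**Figure D1:**
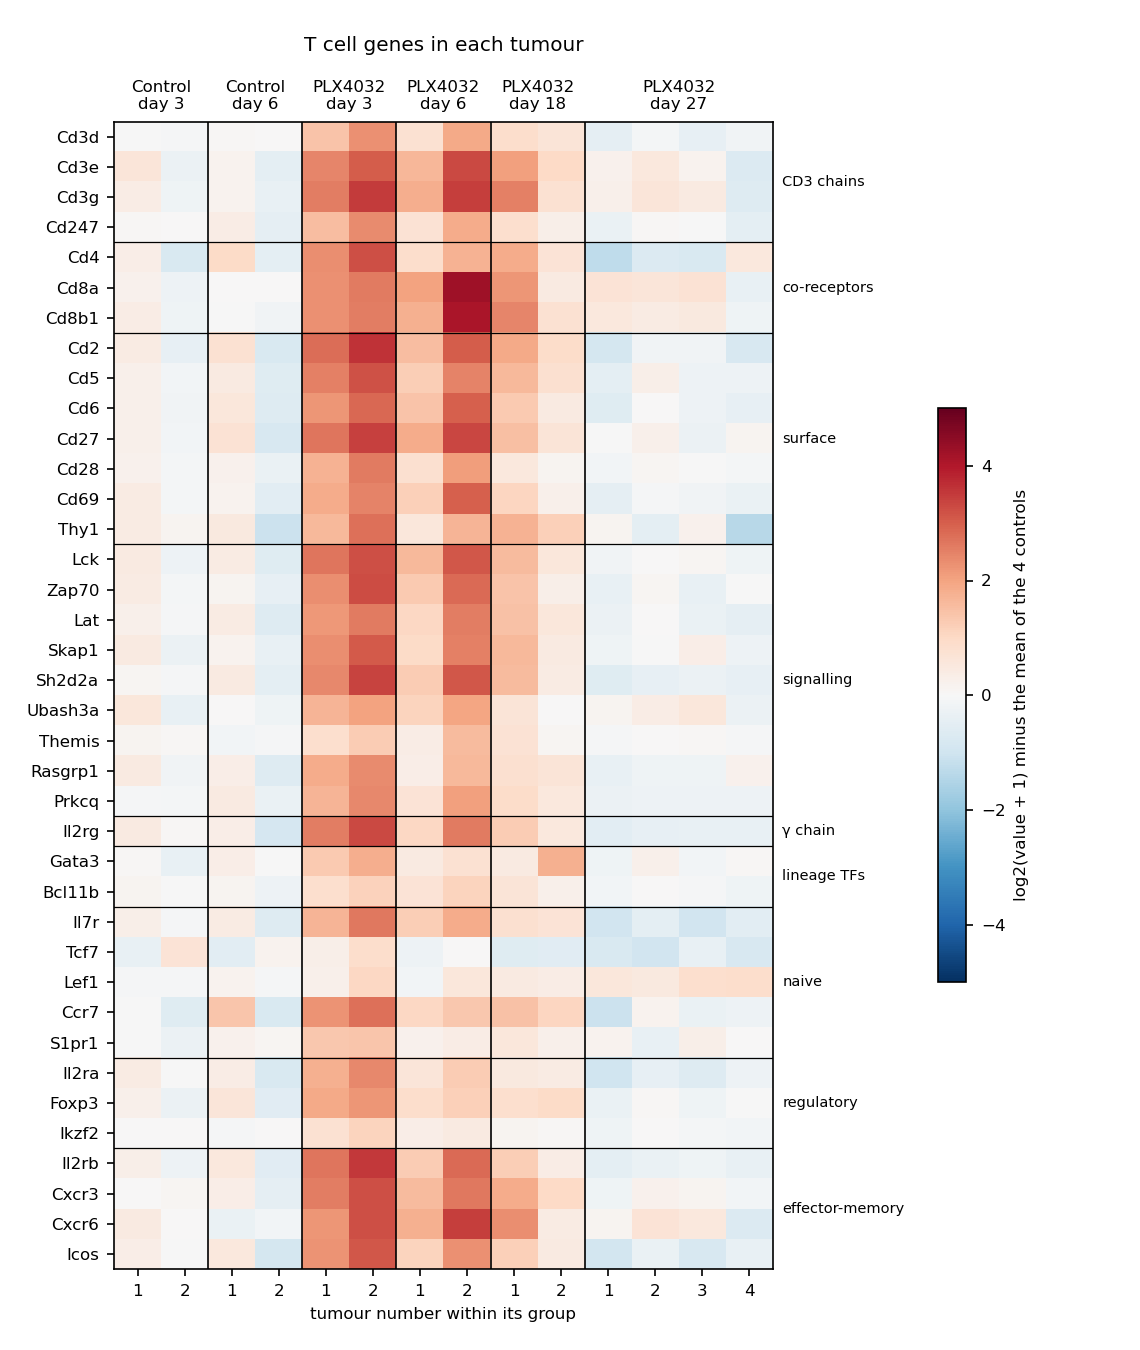
Each cell is the log2(value + 1) of 1 gene (row, grouped by role) in 1 of the 14 tumours (column), minus the mean of the 4 controls; red is higher and blue lower. The controls stand at the left as baseline, followed by the PLX4032 tumours from day 3 to day 27; nearly all rows are red at day 3, and Tcf7 and Lef1 are the palest rows there.

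Both co-receptor types rose at day 3 by similar amounts. Cd4, the co-receptor of helper and regulatory T cells, stood at 22.2 and 42.4 in the PLX4032 tumours, against 4.74, 1.69, 7.87 and 2.26 in the controls, a change of 2.79 (SE 0.59, adjusted p = 0.00323). Cd8a, the alpha chain of the cytotoxic co-receptor, stood at 12.2 and 15.7 in the PLX4032 tumours, against 2.21, 1.29, 1.79 and 1.76 in the controls, a change of 2.44 (SE 0.60, adjusted p = 0.0073). Its partner chain Cd8b1 changed by 2.43 (SE 0.57, adjusted p = 0.00588). For each of the 3 genes the treated tumours and the controls did not overlap.

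All 7 measured adhesion and co-stimulatory genes rose at day 3, with changes of 2.17 to 3.19. The highest was that of Cd2, an adhesion receptor for CD48 in the mouse, which stood at 30.4 and 54.5 in the PLX4032 tumours, against 5.07, 2.49, 6.79 and 1.67 in the controls. The co-stimulatory receptors Cd27 and Cd28 changed by 3.04 and 2.17, and the early activation marker Cd69 by 2.17. Cd5 and Cd6, scavenger-type receptors that temper receptor signalling, changed by 2.84 and 2.54. Thy1, a surface protein that fibroblasts also carry, was the most abundant of the set in the controls, at 31.8 ± 12.9 (SD, n = 4), and stood at 91.3 and 203 in the PLX4032 tumours.

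The signalling genes rose with the receptor, 9 of 9 at day 3. Lck stood at 39.0 and 58.6 in the PLX4032 tumours, against 7.53, 4.29, 7.37 and 3.20 in the controls, a change of 2.95 (SE 0.44, adjusted p = 0.000524). Zap70 stood at 12.8 and 25.2 in the PLX4032 tumours, against 2.59, 1.54, 2.00 and 1.03 in the controls, a change of 2.80 (SE 0.44, adjusted p = 0.000708). The treated tumours were clear of the controls for both kinases. The adaptor genes Lat, Sh2d2a and Skap1 changed by 2.39, 2.88 and 2.69. Rasgrp1, a Ras activator, and Prkcq, which encodes protein kinase C theta, changed by 2.12 and 2.04. Ubash3a, a suppressor of receptor signalling, rose as well, by 1.85. Themis, an adaptor best known from thymocyte selection, had the lowest levels of the set, at 1.22 and 1.98 in the PLX4032 tumours, against 0.370, 0.291, 0.119 and 0.173 in the controls.

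Il2rg, the common gamma chain of several cytokine receptors and a gene of other lymphocytes too, stood at 154 and 258 in the PLX4032 tumours, against 34.7, 26.0, 31.9 and 13.7 in the controls, a change of 2.94 (SE 0.42, adjusted p = 0.000476). The lineage factors were weakly expressed. Gata3, a factor of helper type 2 and innate lymphoid cells, changed by 1.57 and Bcl11b, which holds T cell commitment, by 0.99. The ratios of their mean values to those of the controls were 5.30 and 5.54.

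The naive and central memory genes divided at day 3. Il7r, the interleukin 7 receptor, stood at 7.79 and 16.0 in the PLX4032 tumours, against 2.27, 1.60, 2.60 and 0.729 in the controls, a change of 2.18 (SE 0.34, adjusted p = 0.000652). Ccr7 stood at 16.7 and 24.7 in the PLX4032 tumours, against 2.68, 1.46, 8.98 and 1.25 in the controls, a change of 2.50 (SE 0.51, adjusted p = 0.00265). Tumour 1 of the day 6 controls was thus well above the other controls for Ccr7. S1pr1, the receptor for lymphocyte exit, which endothelium also expresses, stood at 30.3 and 31.0 in the PLX4032 tumours, against 11.2, 8.98, 13.2 and 12.2 in the controls, a change of 1.36 (SE 0.17, adjusted p = 0.000248).

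Tcf7 and Lef1, partner transcription factors of naive and memory precursor T cells, were the only members not called at day 3. In the controls Tcf7 averaged 12.8 and Cd3e 2.01, and at day 27 Lef1 averaged 3.66 and Cd3e 2.14. The part of cells other than T cells in the levels of Tcf7 and Lef1, and so in the naive medians, was not tested. Tcf7 stood at 14.8 and 23.3 in the PLX4032 tumours, against 9.23, 19.8, 8.14 and 13.9 in the controls. The ranges overlapped, and the change was 0.58 (SE 0.30, adjusted p = 0.138). Without tumour 2 of the day 3 controls the change was 0.84 and passed the threshold. Lef1 stood at 2.38 and 4.96 in the PLX4032 tumours, against 1.78, 1.77, 2.24 and 1.73 in the controls, a change of 0.64 (SE 0.24, adjusted p = 0.0511). Lef1 passed under 5 alternatives, with changes of 0.64 to 1.05, among them leaving out tumour 1 of PLX4032 day 3, tumour 1 of PLX4032 day 6 or tumour 2 of PLX4032 day 6.

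All 3 regulatory genes rose at day 3. Foxp3 stood at 5.65 and 7.39 in the PLX4032 tumours, against 1.16, 0.474, 1.71 and 0.210 in the controls, a change of 2.06 (SE 0.29, adjusted p = 0.000416). Il2ra, the high-affinity interleukin 2 receptor chain, which activated T cells also carry, stood at 8.53 and 13.5 in the PLX4032 tumours, against 2.65, 1.74, 2.60 and 0.653 in the controls, a change of 2.08 (SE 0.33, adjusted p = 0.00073). Ikzf2, which encodes the factor Helios, stood at 2.26 and 3.17 in the PLX4032 tumours, against 0.978, 0.970, 0.863 and 0.946 in the controls, a change of 0.93 (SE 0.13, adjusted p = 0.000469). In each of the 3 the treated tumours were above every control.

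All 4 effector-memory genes rose at day 3, and no naive or regulatory gene had as large a change as any of them. Cxcr3 stood at 14.3 and 23.2 in the PLX4032 tumours, against 1.69, 1.78, 2.33 and 0.902 in the controls, a change of 2.88 (SE 0.35, adjusted p = 0.000189). Cxcr6, a receptor of tissue-resident and effector cells, stood at 12.1 and 25.1 in the PLX4032 tumours, against 2.84, 1.85, 1.22 and 1.55 in the controls, a change of 2.72 (SE 0.60, adjusted p = 0.00395). Icos, an inducible co-stimulator, changed by 2.66 and Il2rb, the interleukin 2 receptor chain shared with NK cells, by 3.12. In ratios of mean values, the effector-memory genes stood 9.44 to 11.2 times above the controls, the regulatory genes 2.89 to 7.35 times and the naive genes 1.49 to 6.60 times. The median changes were 2.80 for effector-memory, 2.06 for regulatory and 1.36 for naive genes, and with a pseudocount of 0.1 they were 3.31, 2.60 and 1.43. With a pseudocount of 5 they were 1.77, 0.97 and 1.13, so the order of regulatory and naive genes turned round. The difference between the 3 sets of genes was not tested.

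**Figure D2:**
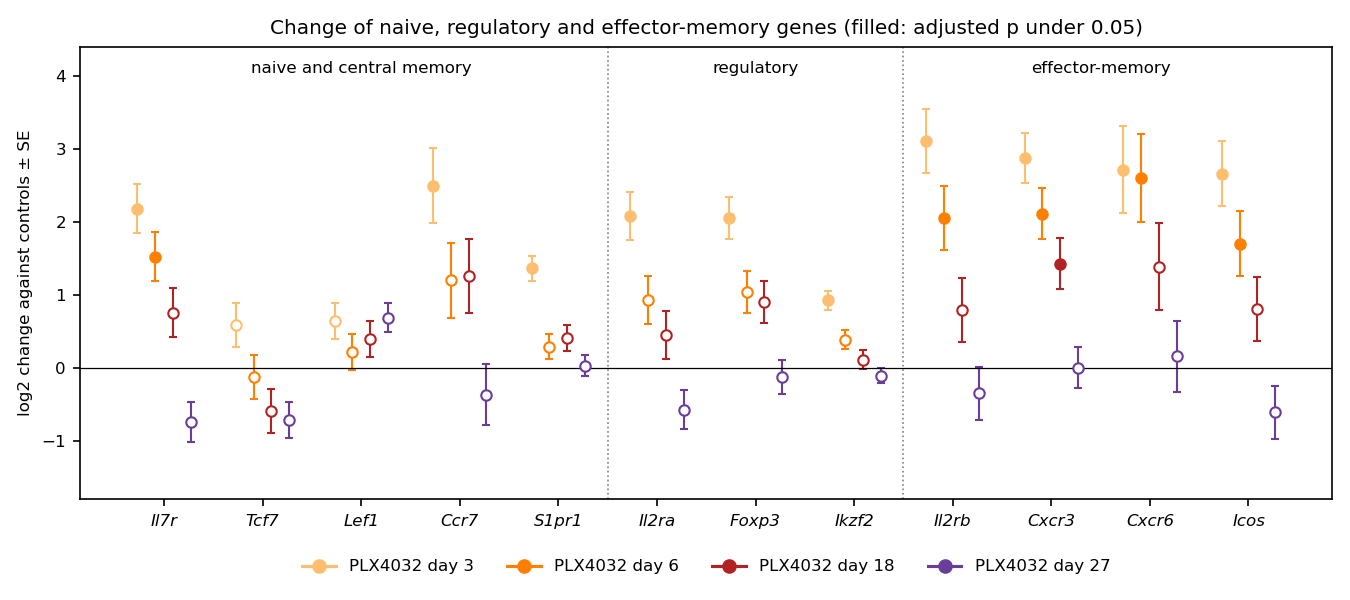
Points are log2 changes against the 4 controls with their SE (y axis) for the 5 naive and central memory, 3 regulatory and 4 effector-memory genes (x axis), with days 3, 6, 18 and 27 of PLX4032 from left to right within each gene. Filled points had an adjusted p under 0.05; all effector-memory points of days 3 and 6 are filled, and Cxcr3 is the filled point of day 18.

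Tumours of the same day differed more in these genes than in most. The median absolute difference between the tumours of a day was 0.675 over the members, against 0.188 over all genes, at day 3, and 1.262 against 0.185 at day 6 (log2 scale). Tumour 2 was above tumour 1 for 38 of 38 members at day 3, by a median of 1.66-fold, and for 38 of 38 at day 6, by a median of 2.94-fold. The day 3 tumour 2 was the highest of all 14 tumours for 31 members. Without it 31 members rose, and Cd8a, Cd8b1, Thy1, Themis and Cxcr6 no longer passed, with changes of 2.27, 2.29, 1.61, 0.84 and 2.22.

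At day 6 the T cell genes were still above the controls, but the calls were fragile. Of the 38 members 24 rose and 0 fell, against 4.49% of all genes that rose, with a median change of 1.62, against 0.01 for all genes. In 33 members both tumours exceeded every control, as did 16.2% of all genes. The 24 adjusted p lay between 0.0337 and 0.0495. All member calls were lost without tumour 2 of PLX4032 day 6, of the day 3 controls or of the day 6 controls. They were also lost without any 1 of the 4 day 27 tumours. More members were called without tumour 1 of the day 6 controls, where more genes of the whole set passed as well. Apart from those without a day 27 tumour, each of these fits leaves 1 tumour in a group. No member was called when the day 27 tumours were averaged in pairs, in a fit on the groups compared alone or against the day 6 controls alone. The median change of the members nevertheless stayed between 0.94 and 2.20 under every alternative run. Where the member calls were lost, the calls over all genes, 937 in the main fit, fell as well. They numbered 8 to 22 without 1 of the day 27 tumours. In the pairings, the fit on the groups compared and the fit against the day 6 controls they numbered 0 to 24.

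The CD8 chains had the largest changes of any member at day 6. Cd8a stood at 10.1 and 50.6 in the PLX4032 tumours, against 2.21, 1.29, 1.79 and 1.76 in the controls, a change of 3.12 (SE 0.60, adjusted p = 0.0337). Cd8b1 stood at 7.66 and 41.2 in the PLX4032 tumours, against 2.26, 1.15, 1.48 and 1.23 in the controls, a change of 2.94 (SE 0.57, adjusted p = 0.0337). Both day 6 tumours were above all controls for both chains, and tumour 2 held the highest Cd8a and Cd8b1 values of the study. Cd4 stood at 7.34 and 14.2 in the PLX4032 tumours, against 4.74, 1.69, 7.87 and 2.26 in the controls, so tumour 1 lay among the controls, and the change of 1.29 (SE 0.59, adjusted p = 0.225) did not pass.

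The receptor and its signalling genes were mostly called at day 6: 3 of 4 CD3 chains, 6 of 7 adhesion and co-stimulatory genes, 6 of 9 signalling genes and Il2rg. Cd3e stood at 8.12 and 27.1 in the PLX4032 tumours, against 3.35, 1.37, 2.28 and 1.05 in the controls, a change of 2.47 (SE 0.50, adjusted p = 0.0337). Lck changed by 2.37 (SE 0.44, adjusted p = 0.0337) and Cd69 by 2.09 (SE 0.44, adjusted p = 0.0337).

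Effector-memory, regulatory and naive genes gave different counts at day 6. All 4 effector-memory genes passed, 0 of 3 regulatory genes did, and Il7r was the 1 of 5 naive genes that did. These counts depend on the settings: Icos lost its call in 22 alternatives, among them both other pseudocounts, both other filters and the fit without a variance trend. Foxp3 gained a call in 3 (columns scaled to the same total, without tumour 1 of the day 3 controls, or without tumour 1 of the day 6 controls), and Il2ra in 1, without tumour 1 of the day 6 controls. Cxcr6 stood at 8.51 and 29.6 in the PLX4032 tumours, against 2.84, 1.85, 1.22 and 1.55 in the controls, a change of 2.60 (SE 0.60, adjusted p = 0.0368). Foxp3 stood at 2.34 and 3.10 in the PLX4032 tumours, against 1.16, 0.474, 1.71 and 0.210 in the controls, without overlap, and its change was 1.04 (SE 0.29, adjusted p = 0.0574). Tcf7 stood at 9.82 and 12.4 in the PLX4032 tumours, inside the range of the controls, with a change of -0.12 (SE 0.30, adjusted p = 0.874). The medians were 2.08 for effector-memory, 0.94 for regulatory and 0.29 for naive genes. The difference between the sets was not tested.

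**Figure D3:**
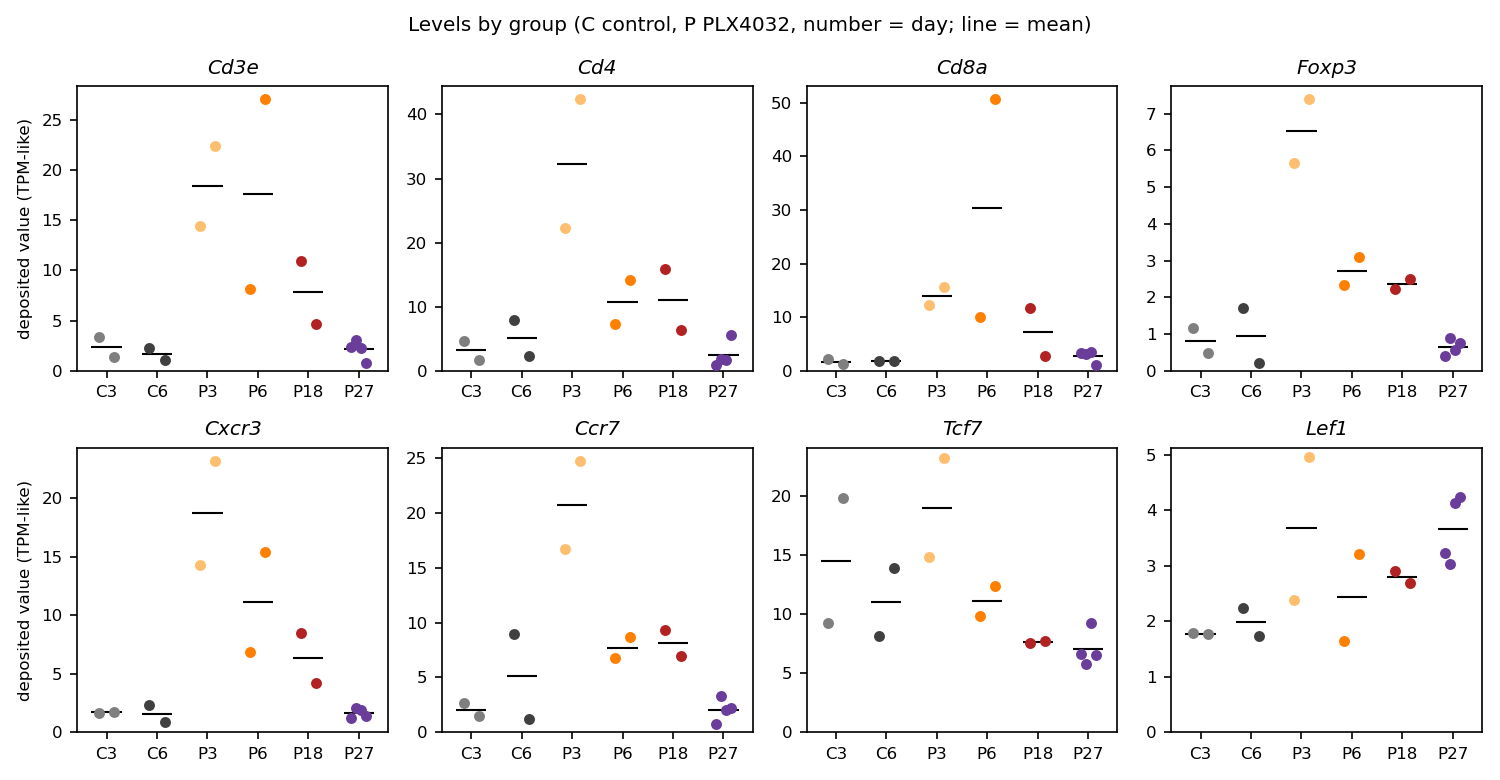
Deposited values (y axis, TPM-like) of 8 members in every tumour by group (x axis; C3 and C6 are controls of days 3 and 6, P3 to P27 PLX4032 by day), with a line at each group mean. Cd8a is highest in a day 6 tumour, Cd4, Foxp3, Cxcr3 and Ccr7 are highest at day 3, and Lef1 is above the controls in all day 27 tumours.

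By day 18 only Cxcr3 passed. It stood at 8.49 and 4.25 in the PLX4032 tumours, against 1.69, 1.78, 2.33 and 0.902 in the controls, without overlap, a change of 1.43 (SE 0.35, adjusted p = 0.0333). That is 1 of 38 members, against 5.42% of all genes that rose, and Cxcr3 failed to pass in 11 of the alternatives run, among them leaving out tumour 1 or tumour 2 of the day 3 controls, tumour 2 of the day 6 controls, either tumour of PLX4032 day 18 or tumour 1 of PLX4032 day 27. In 21 members both day 18 tumours were above every control, as were 24.9% of all genes, and at an unadjusted p under 0.05 there were 20 members, against 4488 of all 15841 genes. More members passed without tumour 1 of the day 6 controls, where more genes of the whole set passed as well. More members also passed without tumour 1, or without tumour 2, of PLX4032 day 6. Each of these fits leaves 1 tumour in a group.

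The pair of day 18 tumours differed from each other. Tumour 1 was above tumour 2 for 35 of 38 members, by a median of 1.97-fold, and was above all 4 controls for 37 members (38.2% of all genes), whereas tumour 2 was above them for 21 (32.8% of all genes). The summed skeletal muscle genes were 44.1 in tumour 1 and 1735 in tumour 2, against 42.8 to 320.3 in the controls, and the part of muscle in the T cell values was not tested. Cd8a stood at 11.8 and 2.75 in the PLX4032 tumours, against 1.29 to 2.21 in the controls, and Cxcr6 at 13.2 and 2.77 in the PLX4032 tumours, against 1.22 to 2.84 in the controls. Gata3 ran the other way, at 1.52 and 5.24 in the PLX4032 tumours, against 0.414 to 1.28 in the controls. Tcf7 was the 1 member of 38 with both day 18 tumours below every control, as were 13.5% of all genes. It stood at 7.56 and 7.75 in the PLX4032 tumours, against a lowest control of 8.14. Its change of -0.59 (SE 0.30, adjusted p = 0.221) did not pass.

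At day 27 no member passed in limma, where 6.67% of all genes did, and 3 members had an unadjusted p under 0.05, against 3422 of all 15841 genes. Il7r stood at 0.393, 0.906, 0.373 and 0.872 in the PLX4032 tumours, against 2.27, 1.60, 2.60 and 0.729 in the controls, a change of -0.74 (SE 0.27, adjusted p = 0.146). Tcf7 stood at 6.64, 5.78, 9.23 and 6.53 in the PLX4032 tumours, against 9.23, 19.8, 8.14 and 13.9 in the controls, a change of -0.72 (SE 0.25, adjusted p = 0.118). For both genes the treated and control ranges overlapped. Lef1 stood at 3.23, 3.03, 4.12 and 4.25 in the PLX4032 tumours, against 1.78, 1.77, 2.24 and 1.73 in the controls. It was the 1 member with every day 27 tumour above every control, as were 7.33% of all genes. Its change was 0.69 (SE 0.20, adjusted p = 0.0672). Lef1 passed without tumour 1, or without tumour 2, of PLX4032 day 3, and Tcf7 passed without tumour 1 of the day 3 controls, with a change of -0.97. The Cd3e values, at 2.39, 3.10, 2.28 and 0.802 in the PLX4032 tumours, overlapped the 3.35, 1.37, 2.28 and 1.05 of the controls. Cd3d stood at 4.34, 5.98, 4.49 and 5.47 in the PLX4032 tumours, below the lowest control of 6.06. It was the 1 member with every day 27 tumour below every control, as were 6.43% of all genes. Tumour 4 had the lowest Cd3e, Cd3g and Cd8a of day 27 and the highest Cd4, at 5.62, against 0.913, 1.89 and 1.70 in the other day 27 tumours.

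Late treated tumours were set against early ones without any controls. In the mean of days 18 and 27 against the mean of days 3 and 6, 35 of 38 members fell and 0 rose, against 19.4% of all genes that fell, with a median change of -1.72, against 0.01 for all genes. All but Thy1, Gata3 and Lef1 passed. Il2rb fell by 2.36 on the log2 scale (SE 0.34, adjusted p = 0.000655) and Foxp3 by 1.16 (SE 0.22, adjusted p = 0.00256). The median falls by set were -1.98 for effector-memory, -1.16 for regulatory and -0.89 for naive genes. In 12 members every late tumour was below every early one, as in 5.83% of all genes, and the ranges of the other 26 overlapped. Lef1 had a change of 0.11 (SE 0.19, adjusted p = 0.665). Cd4 and Ccr7 no longer passed without tumour 2 of PLX4032 day 3, of day 6 or of day 18, with changes of -1.46 to -1.38 for Cd4 and -1.32 to -1.27 for Ccr7. Without tumour 2 of PLX4032 day 3 Tcf7 did not pass either (-0.73). Themis did not pass without tumour 2 of PLX4032 day 3 or of day 18 or with quantile normalisation, with changes of -0.71 to -0.58. Gata3 passed without tumour 2 of PLX4032 day 18 (-0.86). Thy1 passed under 8 alternatives, with changes of -1.41 to -1.03, among them leaving out tumour 1 of PLX4032 day 3, tumour 1 of PLX4032 day 6 or either of the day 6 controls.

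Few members separated the controls of day 6 from those of day 3. Both day 6 controls were above both day 3 controls for 2 members, against 16.8% of all genes. They were below them for 3 members, against 15.2% of all genes. In limma 0 members passed and 0 had an unadjusted p under 0.05, and 0% of all genes passed (886 at an unadjusted p under 0.05). Within each control day tumour 1 was the higher, for 34 of 38 members at day 6 and 36 of 38 at day 3.

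Ratios within a tumour show how the members stood to each other, on the per-length scale. The Cd8a to Cd4 ratio was 0.55 and 0.37 in the PLX4032 tumours of day 3, 1.37 and 3.56 at day 6 and 0.744 and 0.431 at day 18. At day 27 it was 3.68, 1.67, 2.05 and 0.195, so tumour 4 stood apart from the other 3. The controls had 0.466, 0.766, 0.227 and 0.779. Both day 6 tumours under PLX4032 thus exceeded all controls, and at day 3 and day 18 the ratios lay within the control range.

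The Foxp3 to Cd3e ratio was 0.39 and 0.33 in the PLX4032 tumours of day 3, against 0.346, 0.346, 0.75 and 0.2 in the controls, so Foxp3 and Cd3e stood in the proportion seen in controls. At day 6 it was 0.288 and 0.115, with tumour 2 below every control, and at day 18 it was 0.203 and 0.534, within the control range. At day 27 it was 0.175, 0.287, 0.249 and 0.938, with tumour 1 below and tumour 4 above every control. The Ccr7 to Cd3e ratio was 3.94 in tumour 1 of the day 6 controls, against 0.801, 1.06 and 1.19 in the other controls. That tumour was also the highest control for Ccl21a, a chemokine of lymph node stroma (38.8, against 6.53, 1.57 and 0.416), and for the summed B cell genes (14.2, against 5.45, 3.29 and 4.08). The summed macrophage and monocyte, dendritic cell, mast cell, endothelial, adipocyte and skeletal muscle genes were likewise highest in that tumour among the controls. Those of NK cells, group 2 innate lymphoid cells and fibroblasts were not. The part of lymph node or other tissue in the Ccr7 level of that tumour was not tested.

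**Figure D4:**
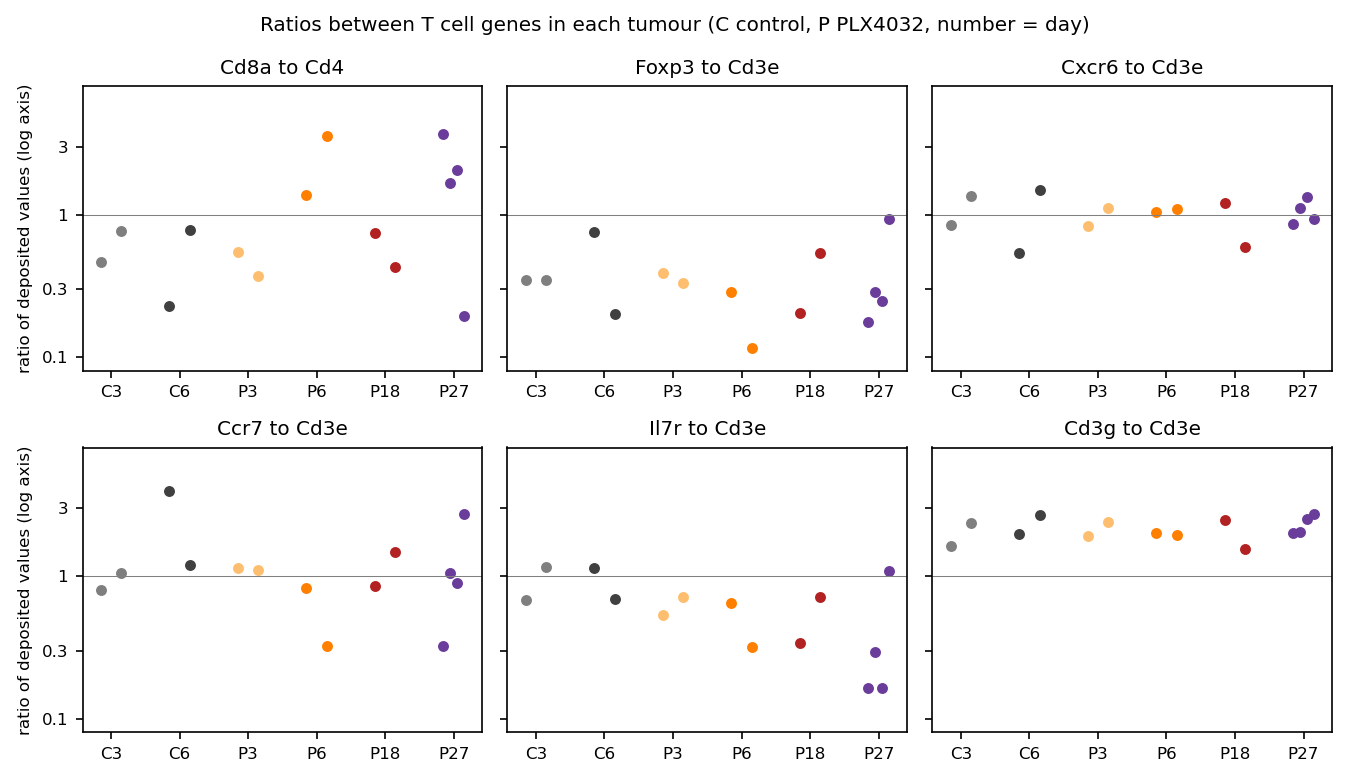
Ratios of deposited values between member genes (y axis, logarithmic) in every tumour by group (x axis; C3 and C6 are controls of days 3 and 6, P3 to P27 PLX4032 by day); each point is 1 tumour. Cd8a to Cd4 is above 1 in both day 6 tumours and in 3 of 4 day 27 tumours, whereas Cd3g to Cd3e stays within 1.56 and 2.71 throughout.

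Most members followed the CD3 chains from tumour to tumour. As a description over the 14 tumours, which include every group, the log2 values of Bcl11b, Lck and Lat had Pearson correlations of 0.989, 0.987 and 0.986 with the mean of the 4 CD3 chains. Cxcr3 had 0.984 and Foxp3 0.906. The lowest were those of Lef1 (0.261), Tcf7 (0.459), Gata3 (0.737) and S1pr1 (0.76), 3 of them naive genes. Each CD3 chain was set against the mean of the other CD3 chains, and these correlations ran from 0.944 for Cd3d to 0.98 for Cd3e.

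The other genes of the T cell receptor pathway were also mostly higher early in limma. Of 25 on the list, 22 rose at day 3, 13 at day 6 and 0 at day 18, and 2 fell at day 27, the transcription factors Nfatc1 and Nfatc2, with changes of -1.57 and -1.32. Of all tested genes, 24.9% rose at day 3, 4.49% at day 6 and 5.42% at day 18, and 489 of 15841 fell at day 27. In late against early treated tumours 23 of 25 fell, against 19.4% of all genes. At day 3 the smallest p were those of Dgka, a lipid kinase that dampens the signal, the Tec-family kinase gene Txk and the adaptor gene Grap2, with changes of 1.68, 2.30 and 2.30. Of 7 constant segments of T cell receptors 6 rose at day 3. Trac, the constant segment of the alpha chain, stood at 47.0 and 86.0 in the PLX4032 tumours of day 3, against 9.45, 3.80, 9.11 and 2.96 in the controls.

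Most markers of other leukocytes were also higher at day 3, when 24.9% of all genes rose. At day 3, 11 of 12 NK cell genes rose and 1 fell (Klra4, -1.60). Of the 5 tested genes of group 2 innate lymphoid cells 3 rose and 1 fell. On the same day 12 of 12 macrophage and monocyte genes rose, as did 9 of 10 dendritic cell genes, 4 of 5 tested B cell genes, 4 of 7 mast cell genes, 6 of 6 pan-leukocyte genes and 10 of 10 endothelial genes. Of the 5 lymph node genes tested 4 rose at day 3, and their list summed to 73.8 and 91.5 in the PLX4032 tumours, against 9.52 to 58.7 in the controls. Ccl19, a Ccr7 ligand of lymph node stroma, stood at 14.7 and 18.8 in the PLX4032 tumours, against 0.413, 0.164, 1.71 and 0.0929 in the controls, a change of 3.57 (adjusted p = 0.000105). The part of lymph node tissue in the day 3 values, those of Ccr7 and Il7r among them, was not tested. The macrophage and monocyte sum was 9529 and 14940 in the PLX4032 tumours of day 3, against 867 to 2675 in the controls, and the NK sum was 258 and 642, against 98.3 to 129.6 in the controls. The B cell sum was 37.5 and 44.8 in the PLX4032 tumours, against 3.29 to 14.2 in the controls, with Pax5, the defining B cell factor, at 0.0463 and 0.483 in the PLX4032 tumours and no higher than 0.119 in the controls. At day 6, 5 of 12 NK, 2 of 12 macrophage and 4 of 6 pan-leukocyte genes rose, against 4.49% of all genes. On that day 3 of 10 dendritic cell and 1 of 5 B cell genes rose. None of the 7 mast cell, 5 group 2 innate lymphoid cell or 10 endothelial genes did. Il2rb, Il2rg, Cd247, Cd2 and Cd69 are among the members shared by NK and T cells. The part of NK cells in the level of any member was not tested.

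**Figure D5:**
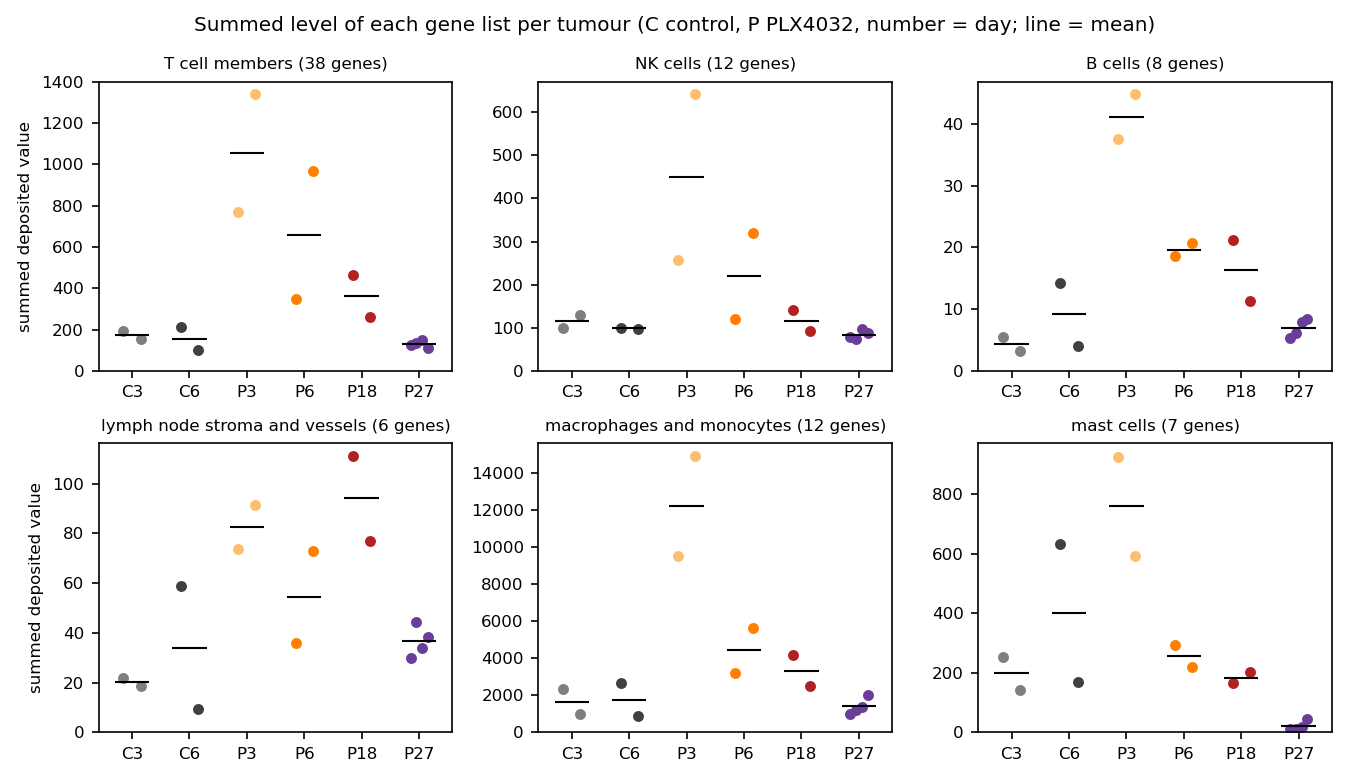
Summed deposited values (y axis, TPM-like) of the 38 T cell members and of 5 marker lists in every tumour by group (x axis; C3 and C6 are controls of days 3 and 6, P3 to P27 PLX4032 by day), with a line at each group mean. T cell, NK, B cell and macrophage sums are highest at day 3, and the mast cell sum is lowest at day 27.

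Markers of tissue around the tumours differed at day 18, when 5.42% of all genes rose. All 8 adipocyte genes tested rose there, with sums of 2708 and 2680 in the PLX4032 tumours, against 23.8 to 71.0 in the controls, and 3 of 5 lymph node genes rose, among them Ccl19 (2.60). At day 3 the adipocyte sums were 138 and 93.4 in the PLX4032 tumours, against 23.8 to 71.0 in the controls. The skeletal muscle sums were 892 and 778, against 42.8 to 320.3. Both tumours exceeded every control in 8 of 9 muscle genes, against 31.2% of all genes. In limma 3 of 8 adipocyte, 1 of 9 muscle and 6 of 10 fibroblast genes rose, against 24.9% of all genes. Of the fibroblast genes 1 fell. The part of such tissue in the T cell values of day 3 and day 18 was not tested. At day 27, 5 of 7 mast cell genes fell, against 489 of all 15841 genes. The mast cell sums were 9.81 to 46.2 in the PLX4032 tumours, against 142 to 631 in the controls. The T cell member sum was 110 to 150 in the PLX4032 tumours, against 103 to 211 in the controls.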

How the data were processed

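Whole-tumour RNA libraries (Trizol extraction and a TruSeq kit from Illumina, according to the labels) were quantified with kallisto and sleuth on mm10, per the submitters' processing notes, which give no versions. The deposited table holds 1 signal value per gene and tumour, headed as TPM, but 5 of 14 columns sum to over 1000000, so the authors' scaling is not known and the values were treated as a TPM-like signal. The test chosen for TPM was kept. Depth is unknown.

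Genes at 1 or more in at least 2 tumours were fitted on log2(value + 1) with limma 3.58.1 (R 4.3.3) with a variance trend, 6 group means and 8 residual degrees of freedom, 2-sided, adjusted over all 15841 genes, and the code was tested on simulated data. The day 27 tumours supply 3 of the 8. The titles of a day 6 control and a day 3 PLX4032 tumour share 1 number. Whether they come from 1 animal, and which columns they are, is not stated. For the rest separate animals are not stated, so a p-value covers only how far these tumours spread. The members and lists were chosen with earlier results of these data known. All members with a row are named. For other lists, counts and up to 4 genes with the smallest p in the comparison described are given, with defining markers near 0. Ccl21a, Klra4 and Trac were named after their values were seen. Promoters come from RefSeq. Alternatives were other pseudocounts, filters, scalings and fits, and leaving out each tumour.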

Additional observations from a re-analysis of the deposited data

Results flagged for a closer look

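Between treated tumours of days 18 and 27 and those of days 3 and 6, 35 members differed in limma, all lower late. The differences (late minus early, log2 scale) were as follows. For the receptor chains they were -1.35 for Cd3d, -1.81 for Cd3e, -1.92 for Cd3g and -1.43 for Cd247, and for the co-receptors -1.67 for Cd4, -1.91 for Cd8a and -1.73 for Cd8b1. Adhesion and co-stimulatory genes had -2.29 for Cd2, -1.85 for Cd5, -2.08 for Cd6, -2.26 for Cd27, -1.67 for Cd28 and -1.92 for Cd69. Signalling genes had -2.16 for Lck, -2.10 for Zap70, -1.72 for Lat, -1.72 for Skap1, -2.27 for Sh2d2a, -1.44 for Ubash3a, -0.81 for Themis, -1.27 for Rasgrp1 and -1.47 for Prkcq. Naive genes had -1.84 for Il7r, -0.89 for Tcf7, -1.40 for Ccr7 and -0.61 for S1pr1. Regulatory genes had -1.16 for Foxp3, -0.65 for Ikzf2 and -1.57 for Il2ra. Effector-memory genes had -1.78 for Cxcr3, -1.89 for Cxcr6, -2.08 for Icos and -2.36 for Il2rb. Il2rg had -2.13 and Bcl11b -0.76.

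In 3 cases the gap between 1 tumour and the nearest other was large relative to the range of its group, which for Il2rg was itself narrow. Cd8a was 1.10 in tumour 4 of day 27, against 3.16 in the nearest other tumour. Il2rg was 17.1 in tumour 1 of day 27, against 18.9 to 19.2 in the other 3. Lef1 was 2.24 in tumour 1 of the day 6 controls, against 1.78 in the nearest control. Of 76 gene and group pairs examined, about 1 in 20 is flagged by chance.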

How the results depend on the processing

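No paired analysis was possible because the columns carry a group and not the animal. At day 3 the called members numbered 31 to 37 when 1 tumour was left out and 33 to 37 under the other alternatives. Late against early, they numbered 31 to 36 and 32 to 36. Between the control days 0 were called throughout. At day 6 the count was 0 under each of the 3 pairings of the day 27 tumours, with only the groups compared and with controls of the same day, and 0 to 29 when 1 tumour was left out. At day 18 it was 0 with a pseudocount of 5, under each pairing and with only the groups compared, and 0 to 7 when 1 tumour was left out. At day 27 it was 1 with all columns scaled to 1000000 and with only the groups compared, and 0 to 1 when 1 tumour was left out. Over all genes, the calls at day 6 numbered 0 to 24 under those pairings, with only the groups compared and with controls of the same day. At day 18 they numbered 170 to 1387 with a pseudocount of 5, under each pairing and with only the groups compared. Under the alternatives that left no tumour out, the calls over all genes at day 3 numbered 5504 to 8075, against 7249 in the main fit. Late against early they numbered 5492 to 6815, against 6331 in the main fit. Quantile normalisation moved the median of all genes from 0.021 to -0.15 at day 3. Directions turned for Ikzf2 at day 18 with quantile normalisation (-0.094), and for Tcf7 at day 6 with controls of the same day (0.042) and without tumour 2 of the day 3 controls (0.137), tumour 2 of the day 6 controls (0.057) or tumour 1 of PLX4032 day 6 (0.033), the changes of Tcf7 there without 1 tumour running from -0.376 to 0.137. They also turned for Lef1 late against early without tumour 1 of PLX4032 day 3 (-0.093) or of day 6 (-0.056), within a range of -0.093 to 0.316 without 1 tumour, and for Lef1 at day 6 without tumour 2 of that day (-0.117), within -0.117 to 0.554. None of these genes was called in the comparison concerned. The cause of these shifts was not tested.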
